A study of Mus musculus with 3 samples.

Results

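Blood endothelial cells, the cells that line the blood vessels of the skin, were picked out of droplet-based 3' single-cell RNA sequencing of mouse back skin. The rule was read from each cell's counts of unique molecular identifiers (UMIs), each of which stands for 1 captured transcript. A cell was a member when at least 4 of the 7 endothelial genes *Pecam1*, *Cdh5*, *Kdr*, *Cldn5*, *Esam*, *Egfl7* and *Plvap* had a UMI, no more than 1 of the 4 lymphatic genes *Prox1*, *Ccl21a*, *Mmrn1* and *Lyve1* did, and neither the leukocyte gene *Ptprc* nor the epithelial gene *Trp63* did. This gave 638 members among 16235 cells. E13.5 held 120 of 5962 cells (2.01%, 95% interval 1.67 to 2.4), E16.5 held 275 of 5208 (5.28%, 4.69 to 5.92) and P0 held 243 of 5065 (4.8%, 4.23 to 5.42). These intervals are exact binomial ones and cover counting error only.

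The study followed hair follicle formation in the back skin of C57BL/6 mice from the embryo to birth. Each stage was 1 library made from the pooled skins of several males, with no labelled treatment or transgene, and all cells of the dissociated skin were loaded without a sort. Embryonic skin at E13.5 and E16.5 was dissociated with 0.25% trypsin for 5 min, and P0 skin with 2 mg/ml collagenase IV for 30 min. Stage, library and dissociation therefore cannot be told apart between P0 and the embryonic stages, there was no replicate library, and no test was run and no p-value is given. Members were deeper than the other cells, with median UMIs of 7980, 15017 and 9365 at E13.5, E16.5 and P0 against 7040.5, 10930 and 6714. The lowest and highest member held 3741 and 60770 UMIs at E13.5, 3959 and 51719 at E16.5, and 3502 and 35630 at P0. When every cell was thinned to 3500 UMIs before the rule was applied, the shares were 1.59%, 5.63% and 4.96%. Libraries shared 44, 41 and 32 cell barcodes pairwise, and 0 of these were members in both.

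The endothelium is the single layer of cells that lines every vessel. Its identity is kept by transcription factors of the Ets, Sox and Gata families, its growth is driven by vascular endothelial growth factor (Vegf) acting on Kdr, and its layout as arteries, capillaries and veins is set by Notch, by Nr2f2 and by blood flow. In the skin the vessels grow as a plexus while the hair follicles form, and the capillaries later carry fatty acids from the blood to the dermis and its fat.

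All 7 rule genes were selected on here, so their levels are a description and support nothing. Pecam1 and Cdh5 hold neighbouring endothelial cells together, Kdr is the main Vegf receptor, Cldn5 seals tight junctions, Esam is an adhesion molecule, Egfl7 is secreted by endothelium and Plvap forms the diaphragms of fenestrae and caveolae. Summed over the 7 genes, members held 3019 UMIs in every 1000000 UMIs (CPM) for E13.5, 3929.8 CPM for E16.5 and 5957 CPM for P0, and the other cells 148, 204 and 125 CPM. The genes were found together less completely in the embryo's earliest stage. All 7 genes had a UMI in 48 of the 120 E13.5 members, 221 of the 275 from E16.5 and 189 of the 243 from P0. Members just inside the threshold, with 4 genes, numbered 36, 14 and 3, with 1185, 298 and 631 CPM for the 7 genes together. Cells just outside it, with 3 genes, numbered 53, 71 and 30, with 570, 285 and 465 CPM. The lymphatic genes removed 157, 61 and 13 cells with at least 4 endothelial genes, and *Ptprc* or *Trp63* removed 19, 44 and 24, some of them for both reasons.

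The 150 bases before the start of the genes that chose the cells are shown for 3 of the 7 genes with a RefSeq promoter entry (GRCm38.p6). They are written 5′ to 3′ on the strand of the gene, with capitals for the letters AGGAAG on either strand (CTTCCT on the other), a core that Ets factors such as Erg and Fli1 can bind.
Kdr, chr5:75978456-75978605, minus strand: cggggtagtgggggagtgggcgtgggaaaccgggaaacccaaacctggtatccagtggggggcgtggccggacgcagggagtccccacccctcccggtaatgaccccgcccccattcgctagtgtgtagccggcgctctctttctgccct
Cldn5, chr16:18776697-18776846, plus strand: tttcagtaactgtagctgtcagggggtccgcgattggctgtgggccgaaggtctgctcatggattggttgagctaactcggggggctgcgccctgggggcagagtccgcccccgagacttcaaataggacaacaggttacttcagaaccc
Egfl7, chr2:26580933-26581082, plus strand: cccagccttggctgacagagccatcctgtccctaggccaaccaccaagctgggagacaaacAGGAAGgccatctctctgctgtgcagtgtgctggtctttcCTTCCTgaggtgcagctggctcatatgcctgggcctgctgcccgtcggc
Egfl7, chr2:26583715-26583864, plus strand: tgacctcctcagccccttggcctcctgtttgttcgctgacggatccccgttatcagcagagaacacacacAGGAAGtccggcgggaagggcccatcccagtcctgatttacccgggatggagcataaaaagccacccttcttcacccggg
The window of *Kdr* held 0 matches and that of *Cldn5* held 0. Of the 3 entries of *Egfl7*, the first held 2 matches, the second 1 and the third, which is not printed, 0. The letters were found in the same window of 19.7% of 32851 promoters, and a match is not evidence of binding.

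Most members at E16.5 and P0, but not at E13.5, lay in sub-clusters without a gene of the other cell type lists named below among their 10 leading genes. Members of each library were clustered alone. All rule genes, namely the 7 endothelial and 4 lymphatic genes, *Ptprc* and *Trp63*, and the phase genes were left out, so *Ccl21a* did not help to form its group. The leading genes of these sub-clusters describe them without being a result. At E13.5, 36 members were led by *Ccl21a* and the muscle genes *Tnnt1*, *Actc1* and *Myog*, 28 by the macrophage complement genes *C1qb*, *C1qc* and *C1qa*, 19 by the mast cell genes *Cma1*, *Cpa3* and *Tpsb2*, and 11 by a mixture with the pericyte gene *Rgs5* and the keratin *Krt14*. The muscle list summed to 413 CPM in those 36, against 596 CPM in the cells of E13.5 that were not members. In the 19 with mast cell genes, *Alas2* and globins were also among the 10 leading genes. The red blood cell list, made of these genes, summed to 149376 CPM there and 21450 CPM in the other E13.5 members. The remaining 26, all of sub-cluster 3, had no gene of the dermal, mural, epidermal, immune, muscle, Schwann and melanocyte or rule lymphatic lists among their 10 leading genes. They had UMIs for a median of 7 of the 7 rule genes and were led by *Aqp1*, *Sox7*, *Gja4*, *Hspg2* and *Notch4*. They also had 8 of 11 arterial, 6 of 10 tip cell, 3 of 8 venous and 3 of 7 capillary genes at least 2-fold above the other E13.5 members. Over all genes tested, 290 of 6976 (4.16%) were called higher. The 7 rule genes summed to 4749 CPM in these 26 and to 1691 to 2305 CPM in the other E13.5 sub-clusters. The 26 were therefore given no vessel type. Comparisons that start from them set cells rich in these genes against all vessel types of a later stage. At E16.5 the 32 cells of sub-cluster 4 carried dermal and mural genes beside endothelial ones, and at P0 the 18 cells of sub-cluster 5 carried mural genes and the 17 of sub-cluster 6 dermal genes. Leaving out sub-clusters with a gene of those lists among the 10 leading genes kept 26 of the E13.5 members, 243 of the E16.5 members and 208 of the P0 members. Genes outside those lists did not count, so that E16.5 sub-cluster 1, led by *Pf4*, and P0 sub-cluster 4, led by *Cd74* and other class II genes of 1 cell, were kept. Globins were not counted either, and the red blood cell list summed to 9306, 5011 and 824 CPM in the members kept. They are called unmixed members below, and since they were defined after the data had been seen, their values stand beside those of all members.

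**Figure D1:**
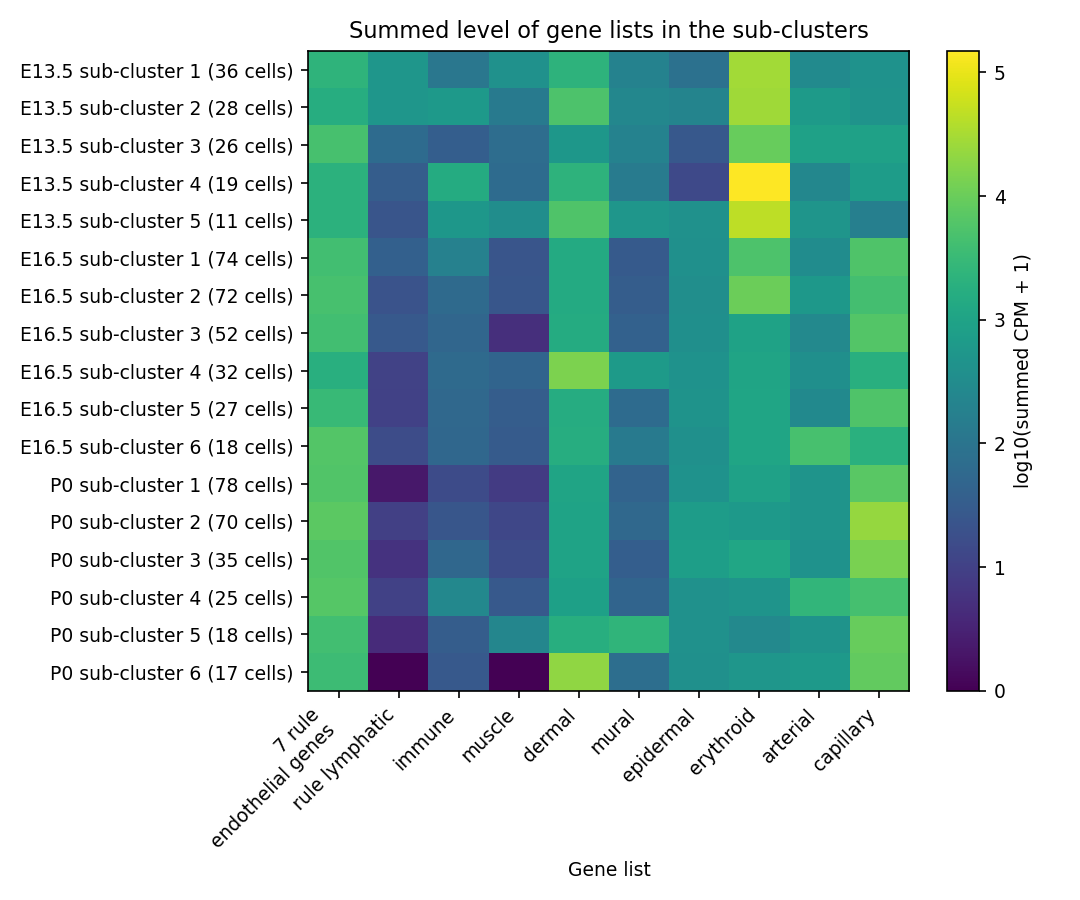
Summed level of each gene list (columns) in each sub-cluster of blood endothelial cells (rows, with their number of cells), coloured by log10 of the summed CPM + 1. The erythroid list is high in all 5 sub-clusters of E13.5, at 149376 CPM in sub-cluster 4 and 9306 to 46101 CPM in the rest. It is also high, at 10270 CPM, in E16.5 sub-cluster 2. The dermal list is high in E16.5 sub-cluster 4 and P0 sub-cluster 6, and the mural list in P0 sub-cluster 5. The arterial list is high in E16.5 sub-cluster 6 and P0 sub-cluster 4.

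RNA of other cell types was therefore measured in the members as a whole. The 8 dermal genes summed to 2569, 3193 and 2665 CPM in members, which was 42.1%, 17.2% and 14.5% of the level in the other cells. Immune genes beyond the rule stood at 79.1%, 17% and 23.7% of that level, and the keratins of the epidermal list at 25.2%, 10.7% and 6.45%. Globins and *Alas2*, the red blood cell list, summed to 36852, 4465 and 736 CPM in members against 17611, 4757 and 1644 CPM in the others. The embryonic globin *Hbb-y* alone was at 9907, 20.7 and 0 CPM in members. Mural genes stood at 57.1%, 42% and 61% of the level in the other cells, and muscle genes at 29.2%, 53% and 101%, the last from only 37 CPM. The rule let 1 of the 4 lymphatic genes pass, and 49, 82 and 12 members had a UMI for 1. The 4 genes summed to 261, 24.7 and 4.44 CPM in members, which was 72.8%, 10.3% and 4.42% of the level in the other cells. Relative to the other cells, members of E13.5 thus stood highest in the dermal, immune, epidermal, rule lymphatic and red blood cell lists. Those of P0 stood highest in the mural and muscle lists, while the epidermal level in members was itself 107, 389 and 553 CPM. The part of this RNA in the comparisons between stages was not tested.

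Beyond the rule genes, the genes that stood highest in members over the other cells of their library were ones known from blood vessels. A gene was called when its CPM differed at least 2-fold after 10 CPM had been added to both levels, among genes with at least 50 UMIs in the groups together. Higher in members were 404 of 13665 (2.96%) genes in E13.5, 604 of 13613 (4.44%) in E16.5 and 825 of 12934 (6.38%) in P0, and lower were 339 of 13665 (2.48%), 702 of 13613 (5.16%) and 845 of 12934 (6.53%). Since the rule selected members on these counts, the contrast is a description and nothing is read from its counts. *Gpihbp1*, which anchors lipoprotein lipase on the capillary wall, stood at 191 CPM in the E13.5 members, 824 CPM in those of E16.5 and 1816 CPM in those of P0 and at 3.54, 21.2 and 18.9 CPM in the other cells. *Aplnr*, the apelin receptor, stood at 276, 503 and 349 CPM in the members of E13.5, E16.5 and P0, the order kept for every set of 3 values below, and at 3.5, 14.5 and 3.58 CPM in the others. The sialomucin *Emcn* stood at 279, 385 and 441 CPM in members and 4.55, 11.2 and 4.4 CPM in the others, and *Cd93*, a surface lectin of endothelium, at 276, 438 and 412 CPM and 5.13, 15.6 and 5.47 CPM. All 4 genes were higher in members than in the other cells of every library.

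The transcription factors of endothelium were high in members for most of the list, with 18 of 27 genes at least 2-fold higher than in the other cells for E13.5, 20 of 27 for E16.5 and 21 of 26 for P0, and 0 lower. *Erg*, an Ets factor that keeps endothelial identity, stood at 45.5, 57.6 and 85.9 CPM in members and 9.95, 9.7 and 2.89 CPM in the others. *Sox17*, a Sox factor of arteries, stood at 94.2, 153 and 209.9 CPM against 2.17, 3.59 and 1.71 CPM, and *Tcf15*, a factor of capillaries that take up fatty acids, at 120.4, 107 and 77.4 CPM against 8.42, 3.57 and 1.73 CPM. Junction and surface genes were higher in members for 13 of 20, 15 of 21 and 15 of 21 genes, and receptors for peptides and lipids for 9 of 13, 10 of 14 and 9 of 14. Basement membrane genes followed with 9, 11 and 11 of 20 genes higher, among them the type IV collagen *Col4a1* at 533, 993 and 1292 CPM in members and 56.9, 209 and 169 CPM in the others.

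Between stages, more genes were called at the step from E16.5 to P0 than at the step from E13.5 to E16.5. At E16.5, 128 of 8694 (1.47%) genes were at least 2-fold higher than at E13.5 and 179 of 8694 (2.06%) lower. At P0, 260 of 9111 (2.85%) genes were higher than at E16.5 and 290 of 9111 (3.18%) lower, and against E13.5 they were 555 of 7326 (7.58%) and 726 of 7326 (9.91%). The 2 comparisons with E16.5 share its library, and the first one rests in part on the mixed members of E13.5. Among unmixed members, 166 of 7716 (2.15%) genes were higher and 68 of 7716 (0.881%) lower at E16.5 against E13.5, and 246 of 8523 (2.89%) and 328 of 8523 (3.85%) at P0 against E16.5. Of the genes called in all members, 144 of 307 and 507 of 550 were also at least 2-fold apart in the same direction in unmixed members. Markers of other cells moved with the first step there. In unmixed members 7 of 7 epidermal genes, with a median log2 difference of 2.34, 4 of 7 dermal and 2 of 4 immune genes were higher at E16.5. In all members the epidermal genes *Lgals7* and *Krtdap* were among the 10 highest differences. The part of such markers in the result was not tested. Over the genes tested in members, the other cells had 163 of 8694 (1.87%) higher and 138 of 8694 (1.59%) lower at the first step and 121 of 9111 (1.33%) and 221 of 9111 (2.43%) at the second. The median of all genes tested was -0.14 on the log2 scale at P0 against E16.5 and -0.14 at P0 against E13.5. Scaling by the median of ratios therefore moved the split of calls, from 47.3% to 65.2% higher at P0 against E16.5 and from 43.3% to 66.9% at P0 against E13.5. The shares at E16.5 against E13.5 were 41.7% and 50.2%.

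Many genes of capillaries and of lipid handling were higher at each later stage. Of the capillary list, 7 of 10 genes were at least 2-fold higher at E16.5 than at E13.5 and 5 of 12 at P0 than at E16.5, with 0 lower, and among unmixed members 7 of 9 and 5 of 12 were. Its median log2 difference was 1.97 and 0.90, against -0.02 and -0.14 over all genes tested. In the other cells the same list had 3 and 3 genes higher. Of the lipid list, which shares 4 genes with it, 7 of 12 and 5 of 11 were higher and 0 lower, against 4 and 2 higher in the other cells.

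*Fabp4*, which carries fatty acids inside the cell, was at 54.8 CPM in the E13.5 members, 1914 CPM in those of E16.5 and 6565 CPM in those of P0. It was low at E13.5 also in unmixed members, at 92.1 CPM, and the log2 difference was 4.89 (95% interval 4.60 to 5.19) for the first step and 1.77 (95% interval 1.74 to 1.81) for the second. The other cells held 1.71, 53.2 and 546 CPM, so the gene was higher at P0 outside the endothelium too. With every cell thinned to 3500 UMIs, 18.3% (11.9 to 26.4), 79.3% (74 to 83.9) and 70% (63.8 to 75.7) of members had a *Fabp4* UMI, against 0.445%, 7.5% and 27.1% of other cells. The share of members with a UMI was thus not higher at P0 than at E16.5 although the summed level was. *Cd36*, a fatty acid receptor at the surface, was at 47.9 CPM in the E13.5 members, 536 CPM in those of E16.5 and 1074 CPM in those of P0, and its second step of 0.99 (95% interval 0.91 to 1.07) was just under 2-fold. *Aqp1*, a water channel, was at 52.5 CPM in the E13.5 members, 638 CPM in those of E16.5 and 1724 CPM in those of P0, with steps of 3.37 (95% interval 3.08 to 3.68) and 1.42 (95% interval 1.35 to 1.49). *Gpihbp1*, given above, had steps of 2.06 (95% interval 1.88 to 2.24) and 1.13 (95% interval 1.07 to 1.19).

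Several genes were higher at P0 than at both embryonic stages, and of these *Timp4* and *Lrg1* were nearly absent in the embryo. *Timp4*, an inhibitor of matrix proteases, was at 0, 3.2 and 98.5 CPM, and *Lrg1*, a secreted glycoprotein listed here as venous, at 0, 2.77 and 155 CPM. A count of 0 at E13.5 allows up to 2.32 CPM in these cells. The P0 UMIs of *Lrg1* came from 88 cells and those of *Timp4* from 125, with no more than 8.35% of *Lrg1* UMIs in a single cell. *Cd300lg*, a mucin of the capillary surface, stood at 1.54, 36.7 and 232 CPM, and the surface proteins *Ly6c1* and *Ly6a* at 16.2, 230.4 and 1451 CPM and at 1.54, 46.7 and 547 CPM. With thinning, 7.5% (3.49 to 13.8), 48.7% (42.7 to 54.8) and 91.8% (87.6 to 94.9) of members had a *Ly6c1* UMI, and 0.24%, 1.78% and 8.79% of other cells. *Scarb1*, a receptor for high density lipoprotein, stood at 49.4, 125 and 747 CPM in members and at 30, 54.6 and 54 CPM in the other cells, where it was not called between E16.5 and P0. *Angptl4*, a secreted inhibitor of lipoprotein lipase, was at 23.2, 28.4 and 257 CPM in members and 47.8, 43.9 and 113 CPM in the others.

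**Figure D2:**
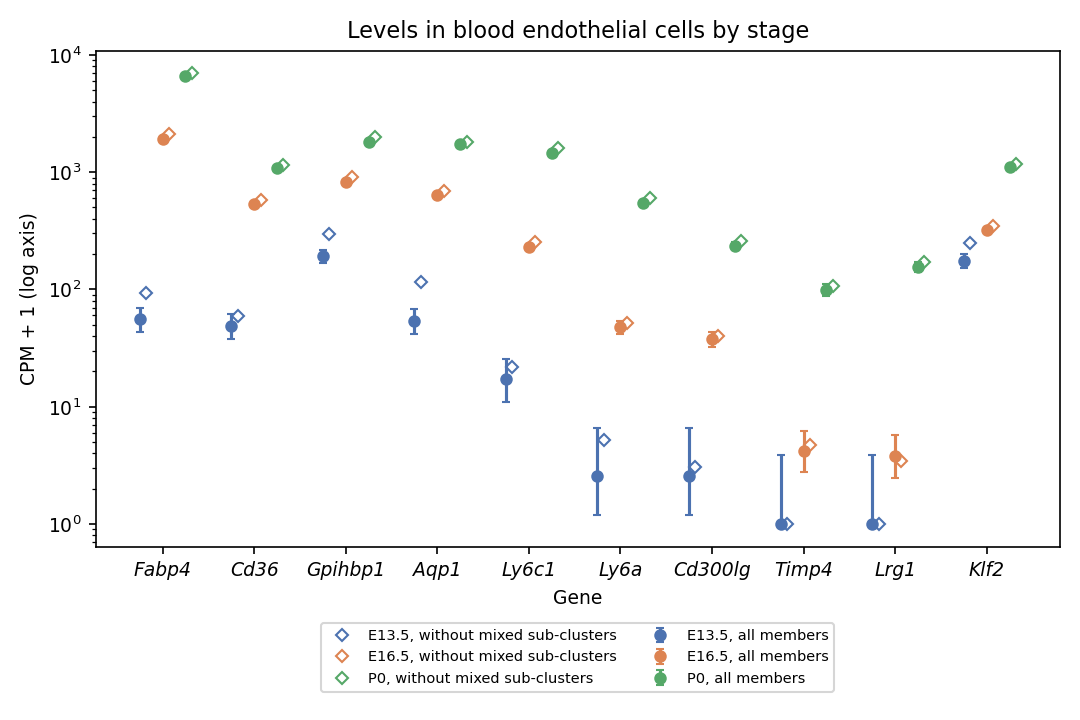
Level of 10 genes in blood endothelial cells of each stage, as CPM + 1 on a log axis, with filled circles for all members, bars for exact Poisson 95% intervals of the summed UMIs and open diamonds for unmixed members. All 10 genes are lowest at E13.5 and highest at P0 in both sets, and *Timp4* and *Lrg1* are under 5 CPM at both embryonic stages.

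Caveolae are pits of the cell surface that move cargo across the endothelium. Of their list, 4 of 7 genes were at least 2-fold higher at E16.5 than at E13.5, among them *Cav1*, the coat protein, at 530.2, 1691 and 2138 CPM. The other cells had 4 higher as well, with a median log2 difference of 1.01 against 1.08 in members, and unmixed members had 2 of 7, *Cav1* and *Aqp1*. *Slc2a1*, the glucose transporter of vessels with a barrier, was the 1 gene that was lower, at 184, 84.6 and 56.6 CPM, and it was lower in unmixed members too, at 280.4, 91 and 65.3 CPM. At P0 3 of 9 were higher than at E16.5, namely *Aqp1*, the scaffold *Slc9a3r2* at 216 and 687 CPM and the tricellular junction gene *Lsr* at 2.13 and 22.2 CPM. The Wnt and barrier list had 0 of 9 genes called at P0 against E16.5.

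The lists of receptors and factors that set vessel growth and type held 0 to 2 called genes each at a step, which is read against the shares of all genes given above. In unmixed members the first step also called *Vegfc* lower and *Dll1*, *Angptl4* and *Klf4* higher. In the Vegf list, 0 of 6 genes were called at the first step, and at the second *Flt4* and *Nrp1* were lower at P0. *Nrp1*, a co-receptor for Vegf and semaphorins, stood at 295, 347 and 152 CPM, with a second step of -1.14 (95% interval -1.29 to -0.99), and in the other cells at 293, 182 and 29.6 CPM. *Flt4*, the receptor for Vegfc, stood at 33.2, 29.4 and 8.15 CPM. *Kdr* and *Flt1* were not called at either step. *Notch2* was the 1 Notch gene called at the first step, where it was lower in all members but not in unmixed ones. The Notch list had 0 genes higher and 0 lower of 14 at P0 against E16.5, with the ligand *Dll4* at 31.6, 30.5 and 45.5 CPM and the receptor *Notch4* at 27.8, 26.9 and 46.3 CPM. The Bmp and Tgf-beta list likewise had 0 of 13 and 0 of 12 called at the steps, and the coreceptor *Eng* stood at 255, 387 and 399 CPM. In the Tie list *Angptl4* was the 1 gene called at the second step, and the receptors *Tek* and *Tie1* stood at 44, 64.6 and 62.6 CPM and at 123, 145 and 175 CPM. Among 26 transcription factors, *Meox1* and *Meox2*, homeobox factors, were higher at E16.5 than at E13.5, with *Meox2* at 45.5, 156 and 174 CPM. At P0, *Klf2* and *Klf4*, which respond to blood flow in endothelium and also to tissue dissociation, were higher than at E16.5. *Klf2* was at 174 CPM in the E13.5 members, 322 CPM in those of E16.5 and 1099 CPM in those of P0, a second step of 1.74 (95% interval 1.65 to 1.83), while in the other cells it was at 33.6, 41.3 and 61.9 CPM. *Klf4* was at 50.2, 58.8 and 237 CPM in members and at 52.4, 114 and 161 CPM in the others.

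Genes of sprouting tip cells had 0 genes higher and 2 lower of 13 at P0 against E16.5. In unmixed members the same 2 were lower and *Plaur* was higher among 12. The proteoglycan *Esm1* stood at 18.5, 31.1 and 4.07 CPM and the potassium channel subunit *Kcne3* at 23.9, 44.3 and 4.44 CPM, and both were at most 2.52 CPM in the other cells of every stage. The apelin ligand *Apln*, at 70.2, 146 and 110.3 CPM, was not called. Of the glycolysis list, *Pgk1* and *Pgam1* were lower at P0 among 17, against 5 lower in the other cells. Of the basement membrane list, *Emilin1* and *Fn1* were lower at P0 among 19, with *Fn1* at 169.8, 104 and 42.6 CPM. Junction genes higher at P0 were *Jam2*, *Cd200*, *Ly6c1* and *Ly6a* of 20, and the other cells had 5 of the list higher. The receptor list held *Ramp2*, the partner of the adrenomedullin receptor, at 353, 508 and 1036 CPM, and *Gpr182*, a chemokine scavenger, at 6.95, 16.2 and 53.3 CPM, as the 2 of 12 called at that step. Of the arterial list, 0 of 12 genes were called, while in unmixed members *Gja5* and *Unc5b* were lower among 12. At E16.5 against E13.5, unmixed members had *Fbln5* higher and *Gja4*, *Gja5* and *Vegfc* lower among 12 arterial genes.

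Antigen presentation and interferon genes stood higher in P0 members than in E16.5 members for most of the list. Of 16 genes, 13 were at least 2-fold higher and 0 lower, with a median log2 difference of 1.50, while in the other cells 1 was higher and the median was 0.47. Unmixed members had 13 of 16 higher. At E16.5 against E13.5, 3 of 13 were higher in all members. A higher sum at P0 was not limited to members. In the mural-type cells described below, the list went from 2414 CPM before birth, at E16.5, to 5420 CPM in the newborn. Over the same step members went from 2461 to 9225 CPM and all other cells from 1806 to 2230 CPM. Against mural-type cells, members had 3 of 13 genes higher and 1 lower at E16.5, and 8 of 16 higher and 0 lower at P0. *B2m*, the light chain of class I major histocompatibility complex (MHC) molecules, was at 363 CPM in the E13.5 members, 445 CPM in those of E16.5 and 1252 CPM in those of P0, and its heavy chain *H2-D1* at 81, 153 and 653 CPM. For *H2-D1* the other cells held 27.7, 44.8 and 89.4 CPM, and the second step in members was 2.02 (95% interval 1.90 to 2.15). The immunoproteasome subunit *Psmb8* stood at 13.9, 19.4 and 131 CPM in members and at 9.55, 12.1 and 14.2 CPM in the others. *Ifitm3*, an interferon-induced membrane protein that limits virus entry, was at 159 CPM in the E13.5 members, 456 CPM in those of E16.5 and 3244 CPM in those of P0 and at 85.1, 283 and 477 CPM in the other cells, and *Bst2*, another such protein, at 174, 325 and 815 CPM and 24.4, 27.3 and 52.9 CPM. *Slfn2*, a growth regulator of the Schlafen family, was not on the list and was likewise higher at P0, at 6.17, 5.76 and 102 CPM against 7.13, 11.6 and 6.54 CPM in the other cells. Class II genes did not share this pattern across cells. *Cd74*, the class II invariant chain, was among the 10 highest differences at P0, but 358 of its 375 UMIs came from 1 cell of 9907 UMIs, and without the highest cell of each library its difference was 0.35 instead of 3.52.

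**Figure D3:**
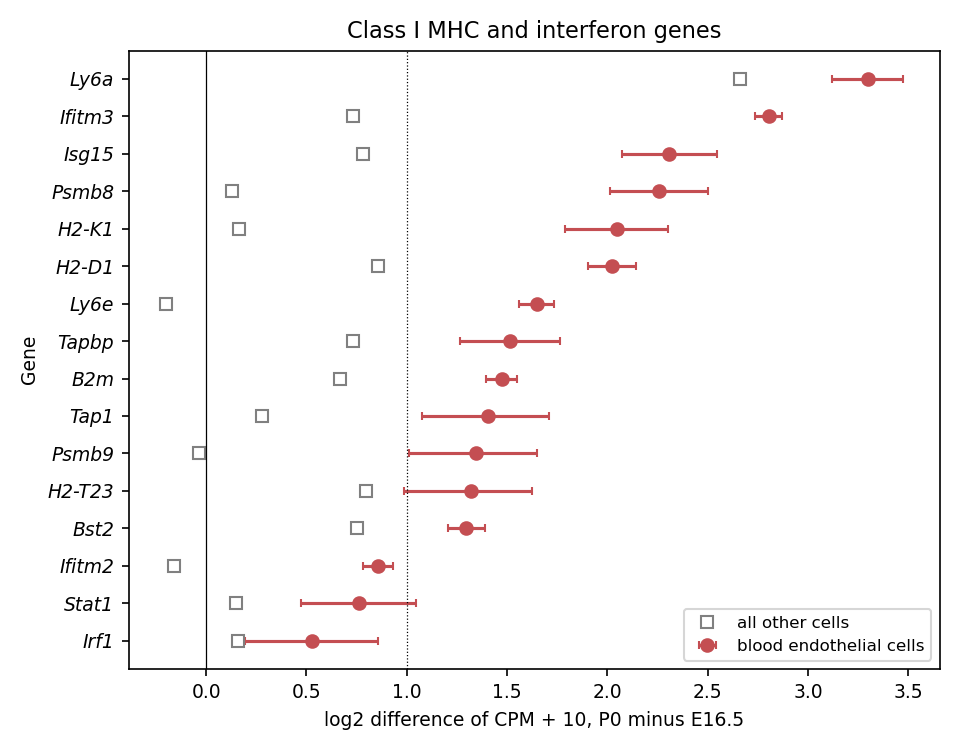
Log2 difference between P0 and E16.5 for the class I MHC and interferon genes, in blood endothelial cells with bars for 95% intervals of counting error and in all other cells. In the members 13 of 16 genes lie at 1 or above, and in the other cells 1 does.

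Genes that respond to tissue dissociation were also higher at P0, where the enzyme differed. Of 17 genes, 11 were at least 2-fold higher in members and 0 lower at P0 against E16.5, and 10 higher and 1 lower in the other cells. The immediate early factor *Fos* was at 45.5, 204 and 934 CPM in members and 72.3, 548 and 1039 CPM in the others, and *Socs3*, a brake on cytokine signals, at 4.63, 18.5 and 197 CPM and 6.61, 11.4 and 63.7 CPM. The list was thus called about as often outside the endothelium, and the part of dissociation in the other P0 differences was not tested.

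Many cell division genes were lower at P0. Of the S phase list, 14 of 41 genes were at least 2-fold lower than at E16.5 and of the G2/M list 23 of 52, with 0 higher, against 3 and 5 lower in the other cells. Unmixed members had 15 of 41 and 29 of 52 lower. *Top2a*, which untangles DNA in dividing cells, was at 230 CPM in the E13.5 members, 244 CPM in those of E16.5 and 57 CPM in those of P0, and *Mki67*, a general mark of dividing cells, at 100.3, 108 and 29.2 CPM. For *Top2a* the other cells held 234, 262 and 124 CPM. At E16.5 against E13.5 the lists had 1 and 0 genes lower and 0 higher.

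Scored cell by cell after thinning to 3500 UMIs, 87.5% (95% interval 80.2 to 92.8) of E13.5 members were called S or G2/M phase, 74.2% (95% interval 68.6 to 79.3) of E16.5 members and 32.9% (95% interval 27 to 39.2) of P0 members. The other cells had 69.4%, 64.8% and 44.2%. Members as a whole were above the other cells in these calls at both embryonic stages and below them at P0. The summed lists differed less in the embryo, with the S phase list at 92.3%, 86.8% and 59.2% of its level in the other cells and the G2/M list at 107%, 102% and 60.8%. At full depth the member shares were 87.5%, 73.8% and 29.2%. The E13.5 share was 65.4% (17 of 26, 95% interval 44.3 to 82.8) in the 26 unmixed members and was thus not above that of the other cells, while unmixed members had 74.1% at E16.5 and 30.3% at P0. A rule that asked for at least 1% of UMIs in the lists gave 39.2%, 35.3% and 9.88%, so P0 was lowest by each of these measures, while the order of E13.5 and E16.5 turned in unmixed members.

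**Figure D4:**
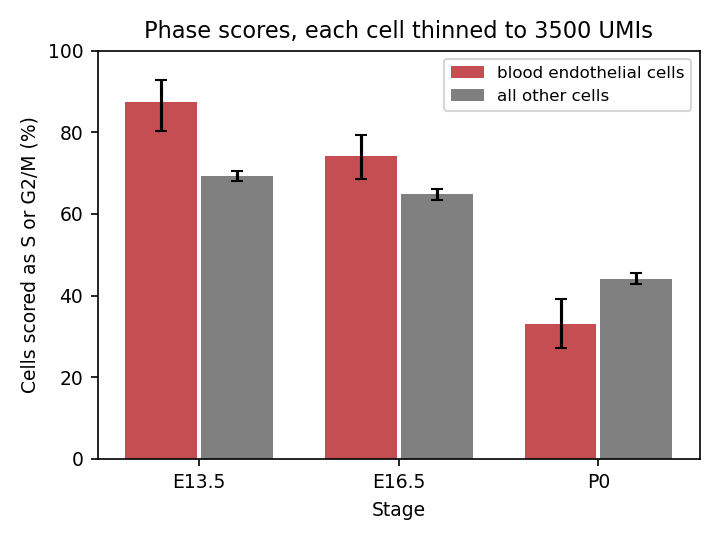
Share of cells scored as S or G2/M phase, in percent, for blood endothelial cells and for all other cells of each stage, after every cell had been thinned to 3500 UMIs, with exact binomial 95% intervals as bars. The members go from 87.5% to 32.9% and the other cells from 69.4% to 44.2%.

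Some imprinted growth genes were lower at P0. Of 11 genes 4 were lower at P0 than at E16.5 in members, and 9 in the other cells. *Igf2*, a fetal growth factor, was at 1259 CPM in the E13.5 members, 1172 CPM in those of E16.5 and 124 CPM in those of P0 and at 1229, 819 and 41.5 CPM in the others, and *H19*, the noncoding RNA beside it, at 1662, 1394 and 565 CPM and 1272, 1208 and 538 CPM. *Cdkn1c*, a cell cycle inhibitor, was lower at both steps, at 1284, 446 and 150.3 CPM, also in unmixed members with log2 differences of -1.12 and -1.27. *Meg3*, a noncoding RNA, was at 1495, 332 and 373 CPM in members and 3915, 2137 and 1423 CPM in the others, and it belongs to the genes for which the first step was smaller without the mixed members, -1.04 in place of -2.14. Histone RNA such as *Hist1h2ap*, at 463, 821 and 80.3 CPM, was among the 10 lowest differences at P0 against E16.5. So was the noncoding RNA *Gm42418*, at 1012, 974 and 105 CPM. The other cells had 1100.3 and 149.6 CPM of *Hist1h2ap* at E16.5 and P0 and 878 and 83.2 CPM of *Gm42418*. The noncoding RNAs *AY036118* and *Gm26917*, from the same stretch of chromosome 17 as *Gm42418*, were also among these 10.

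Within a stage, arterial and capillary genes separated groups of members. At E16.5, sub-cluster 6 held 18 cells and all 13 of 13 arterial genes tested were at least 2-fold higher there than in the other members, so the cells are called arterial-like. The list summed to 4687 CPM in them and 378 CPM in the others. At P0, sub-cluster 4 held 25 cells with 9 of 10 arterial genes higher, and the list summed to 2559 and 478 CPM. Over all genes tested, 382 of 10063 (3.8%) were at least 2-fold higher in the first group and 247 of 8478 (2.91%) in the second. The listed genes helped to form the groups and are given as a description. The gap junction gene *Gja4* was at 1275 CPM against 26.7 CPM at E16.5 and 433 CPM against 20.2 CPM at P0. The Notch target *Hey1* was at 302 CPM against 13.6 CPM and 108 CPM against 12.5 CPM, and the chemokine *Cxcl12* at 309.5 CPM against 14.5 CPM and 122 CPM against 17.7 CPM. *Stmn2*, a microtubule regulator, was at 372 CPM against 23.5 CPM and 586 CPM against 27 CPM, with 25.4% of its P0 UMIs in 1 cell. The vein factor *Nr2f2* went the other way, at 29.5 CPM against 123 CPM and 4.51 CPM against 90.8 CPM, as did *Aplnr* at 18.4 CPM against 532 CPM and 104 CPM against 371 CPM. *Fabp4* was also lower in the arterial-like cells, at 335 CPM against 2011 CPM and 946 CPM against 7068 CPM. Few arterial-like cells were scored in S or G2/M phase, 16.7% (3 of 18, 95% interval 3.58 to 41.4) at E16.5 and 4% (1 of 25, 95% interval 0.101 to 20.4) at P0. Dividing members stood apart in E16.5 sub-cluster 1 and P0 sub-cluster 3, both at 100%, which lowers the share in the rest. At P0 sub-clusters 1 and 2 were low as well, at 16.7% (95% interval 9.18 to 26.8) and 20% (95% interval 11.4 to 31.3). P0 sub-clusters 5 and 6 were at 50% and 47.1%, and the other sub-clusters of E16.5 at 55.6% or more. The cell that held most of the class II UMIs lay in the arterial-like group of P0, which without each gene's highest cell was led by *Gja4* and *Stmn2*.

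**Figure D5:**
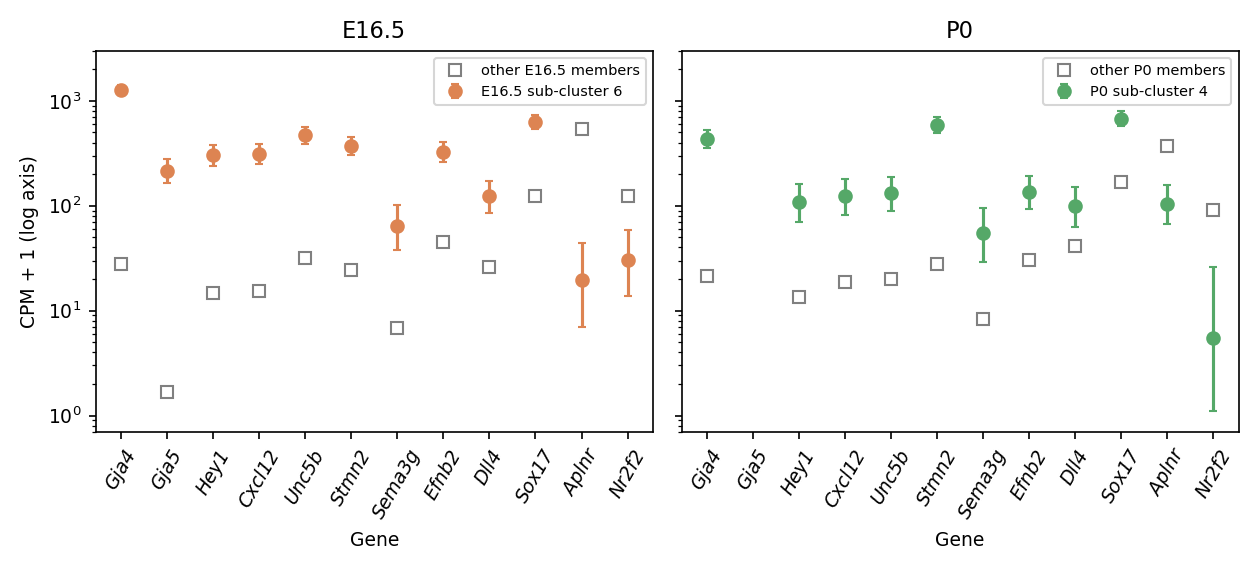
Level of arterial genes, of *Aplnr* and of *Nr2f2* in the arterial-like sub-cluster (filled circles, exact Poisson 95% intervals as bars) and in the other members of the same stage (open squares), as CPM + 1 on a log axis, with E16.5 left and P0 right. *Gja5* had fewer than 20 UMIs at P0 and is not plotted there, and *Aplnr* and *Nr2f2* are the 2 genes lower in the arterial-like cells.

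At P0, sub-cluster 2 held 70 cells and is called capillary-like from 4 of 12 capillary genes tested. These were *Car4*, *Cd36*, *Fabp4* and *Btnl9*, at least 2-fold higher there than in the other members. The capillary list summed to 22921 against 8658 CPM, and *Fabp4*, given below, made up most of the first sum. Of all genes tested, 35 of 8478 (0.413%) were called higher there. The carbonic anhydrase *Car4* was at 58 CPM against 7.46 CPM and *Fabp4* at 14835 CPM against 3731 CPM. Outside that list, the glycerol channel *Aqp7* was at 135 CPM against 17.4 CPM, *Fabp5*, a further fatty acid carrier, at 1017 CPM against 299 CPM, and *Pparg*, the nuclear receptor that controls fat genes, at 82.7 CPM against 25.4 CPM. *Angptl4* was at 516 CPM against 168 CPM, *Lrg1*, listed here as venous, at 341 CPM against 91.5 CPM and *Tcf15* at 157 CPM against 50.2 CPM. All of these were at least 2-fold higher there, while *Gpihbp1* and *Aqp1* were less unequal, at 2315 CPM against 1646 CPM and 2237 CPM against 1548 CPM. The largest P0 group, the 78 cells of sub-cluster 1, was low in *Fabp4*, at 1465 CPM against 8895 CPM, and led by *Lrat*, which esterifies retinol, at 358 CPM against 120.3 CPM, with the growth factor *Hbegf*. It rested on too few listed markers to be given a vessel type. *Lrat* also differed between stages, at 0, 50.9 and 195 CPM in all members and 0.0576, 1.58 and 1.46 CPM in the other cells.

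At E16.5, the 52 cells of sub-cluster 3 were higher in *Nr2f2*, *Nrp2* and *Vwf*, 3 of 10 venous genes, at 213 CPM against 91.9 CPM, 295 CPM against 109 CPM and 67.8 CPM against 26.3 CPM. Of all genes tested, 20 of 10063 (0.199%) were called higher there. *Vwf* was also higher in the arterial-like cells, at 169.5 CPM against 26.9 CPM, and *Nrp2* is on the lymphatic list too, which summed to 396 against 245 CPM in sub-cluster 3. The group was therefore given no vessel type. *Fabp4* was higher in it as well, at 3308 CPM against 1536 CPM. Sub-cluster 1, with 74 cells, was made of dividing cells, all scored in S or G2/M phase. Sub-cluster 2, with 72 cells, was led by globins, followed by *Btnl9* and *Esm1*, and was not named. Its red blood cell list summed to 10270 CPM against 2759 CPM in the other members, and without each gene's highest cell *Btnl9* came first. Sub-cluster 5, whose median of 6699 UMIs was the lowest of the stage, was not named either. In sub-cluster 2 *Esm1* was at 68.5 CPM against 20.1 CPM. At P0 the dividing cells were sub-cluster 3, with 35 members. Sub-cluster sizes are not compared between stages, since the genes that form them differ.

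Members were also compared with endothelial cells of the lymphatic type and with the mural cells that wrap vessels. Lymphatic-type cells were chosen at E16.5 by at least 2 lymphatic and 3 endothelial rule genes, which gave 58. Of all genes tested, 127 of 8731 (1.45%) were at least 2-fold higher in members and 207 of 8731 (2.37%) lower. The 5 genes highest in members were the globins *Hba-a2*, *Hba-a1*, *Hbb-bt* and *Hbb-bs* and the tip cell list gene *Igfbp3*. The red blood cell list summed to 4465 CPM in members and 922 CPM in lymphatic-type cells, and its part in this comparison was not tested. The lymphatic genes that the rule did not use were lower in members for 9 of 9, and the capillary genes higher for 6 of 10. *Flt4* was at 29.4 CPM in members and 221 CPM in lymphatic-type cells, while *Flt1*, a decoy receptor for Vegf, was at 197 CPM in members and 66.1 CPM in lymphatic-type cells. *Nrp2* was at 149 CPM in members and 466 CPM in lymphatic-type cells and *Nrp1* at 347 CPM in members and 143 CPM in lymphatic-type cells, so the neuropilins went opposite ways. Among transcription factors, *Sox17* was at 153 CPM in members and 51.3 CPM in lymphatic-type cells and *Epas1*, a hypoxia factor, at 110 CPM in members and 43.8 CPM in lymphatic-type cells. The S and G2/M lists had 0 genes called in either direction. At E13.5 the same choice gave 177 lymphatic-type cells, and 147 of 7082 genes were higher and 110 lower in members, led by the mast cell genes *Cma1* and *Cpa3* of the mixed members, so that comparison is not described further.

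Mural-type cells had a UMI for at least 4 of 7 mural genes and for at most 1 endothelial rule gene, and numbered 94 at E16.5 and 125 at P0. Among genes tested, 617 of 8660 (7.12%) were higher in members and 528 of 8660 (6.1%) lower at E16.5, and 684 of 6728 (10.2%) and 504 of 6728 (7.49%) at P0. Endothelial transcription factors were higher in members for 19 of 25 and 20 of 23, with *Nr2f2* lower at both stages, at 118 against 253 CPM at E16.5 and 83.7 against 244 CPM at P0. Notch genes were split between the cell types. The ligand *Dll4* was at 30.5 against 0.989 CPM at E16.5 and 45.5 against 2.38 CPM at P0, and *Notch4* at 26.9 against 0.989 CPM at E16.5 and 46.3 against 0 CPM at P0. *Notch2*, a further receptor, was at 8.31 against 53.4 CPM at E16.5 and 9.26 against 47.7 CPM at P0, and the target *Heyl* at 8.74 against 146 CPM at E16.5 and 2.96 against 78.7 CPM at P0. The ligand and *Notch4* were thus higher in members, and *Notch2* and *Heyl* in mural-type cells. *Notch3* helped to choose the mural-type cells and is not compared.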

How the data were processed

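Droplet-based 3' RNA sequencing (10x v2) of dissociated mouse back skin was analysed in 3 libraries, 1 per stage. Reads had been aligned to mm10 and counted per gene by Cell Ranger 2.2.0. Per the study's methods, genes found in fewer than 3 cells and cells below 1750 genes were then dropped, and the lowest cell of the files held 1751, 1761 and 1750 genes. The authors deposited natural log (ln) values, which the numbers show to be each gene's UMIs scaled to 10000 in a cell, with 1 added before the log. All 48197283 values above 0 came back as whole UMIs within a tolerance of 0.001. The members held 1295692, 4691345 and 2700951 UMIs at E13.5, E16.5 and P0.

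UMIs were summed over the cells of a group and scaled to CPM. Differences are log2 ratios after adding 10 CPM, so they understate the change of low genes. Intervals come from exact Poisson bounds of the sums and exact binomial bounds of shares at 95%, and cover counting error only. Genes with at least 50 UMIs in both groups together were tested against a 2-fold threshold (20 UMIs for sub-clusters). Members of each library were clustered in scanpy 1.11.5 (2000 variable genes, 20 principal components, 15 neighbours, leidenalg 0.10.2 at resolution 0.6) under Python 3.11.15. Sub-clusters were named only from at least 3 listed markers. The method was tested on simulated data with known changes.

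The members and the gene lists were chosen with earlier results of these data known. Named genes were those of 34 lists, the 10 highest and 10 lowest differences between stages, the 15 highest over the other cells, and the 5 highest for each sub-cluster and each related cell type. *Hbegf* and the cell with most *Cd74* UMIs were described after their values had been seen. Doublets were called with Scrublet as implemented in scanpy and kept in the values given. Alternatives changed the value added, the minimum of UMIs, the scaling, the weight of cells, the rule, the depth, the phase rule and the clustering.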

Additional observations from a re-analysis of the deposited data

How the results depend on the processing

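No paired analysis was possible because each stage had 1 library. Adding 1 CPM in place of 10 raised the number of genes at 2-fold to 626 at E16.5 against E13.5 (from 307), to 1296 at P0 against E16.5 (from 550), and to 2848, 3402 and 3983 for members against other cells at E13.5, E16.5 and P0 (from 743, 1306 and 1670). Thinning each member gave 827 of 3595 genes tested at P0 against E13.5 (from 1281 of 7326). Against other cells at E13.5 the count was 401 with at least 3 of 7 rule genes and 1719 without the mixed sub-clusters. The E13.5 share of members was 2.9% with at least 3 rule genes, 1.41% with 5, 1.06% with 6, 1.19% with no lymphatic gene allowed, 1.59% after thinning and 0.436% without the mixed sub-clusters. The E16.5 share was 6.64% with at least 3 rule genes, 3.71% with no lymphatic gene and 4.67% without the mixed sub-clusters, and the P0 share 8.69% in cells with at least 2500 genes and 4.11% without the mixed sub-clusters. The E13.5 share in S or G2/M phase was 93% with no lymphatic gene, 79.4% with at least 6 rule genes and 65.4% without the mixed sub-clusters, and the 1% rule gave 39.2%, 35.3% and 9.88% for the stages in order. Resolution 0.3 gave 3 sub-clusters at E13.5 (from 5). The settings without the mixed sub-clusters, with at least 6 rule genes and without each gene's highest cell were chosen after seeing the data. Scrublet called 0 cells at E13.5, so it was treated as not working there and was not run as an alternative for that stage, and it called 84 and 106 cells at E16.5 and P0, among them 10 members each. Without the mixed sub-clusters the log2 difference at E16.5 against E13.5 turned to 0.42 for *Ccl21a*, 1.48 for *Cpa3*, 2.02 for *Hbb-bs*, 0.20 for *Nkd1*, 0.46 for *Notch2* and 0.80 for *Tyrobp*, and at P0 against E13.5 to 0.35 for *C1qb*, 0.23 for *Ccl21a*, 0.27 for *Cpa3*, 0.28 for *Cxcl12*, 0.014 for *Nkd1*, 0.68 for *Notch2*, 0.55 for *Pdgfra* and 0.89 for *Tyrobp*. At E16.5 against E13.5 *Ccl21a* also turned to 0.049 with at least 6 rule genes and *Cpe* to 0.034 after thinning. All these genes were lower at the later stage in all members. The cause of these changes was not tested, except that fewer cells enter where sub-clusters are left out. Depth limits genes under about 10 CPM, whose differences are set by the value added.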

Other observations

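Genes by which vessels hold leukocytes and control clotting, the leukocyte adhesion and haemostasis list, summed to 689.98, 766 and 1031 CPM in members and 332, 237 and 124 CPM in the other cells. The list had 1 gene at least 2-fold higher and 0 lower of 9 at P0 against E16.5, namely *Lgals9*, a galectin, at 33.2, 97.2 and 317 CPM in members and 23.4, 16.9 and 33.4 CPM in the other cells. *Sele*, a selectin of inflamed vessels, had 0 UMIs in the members of both embryonic stages and 10 CPM at P0, from 18 cells, with 22.2% of its UMIs in 1 of them. *Selp*, the selectin stored with von Willebrand factor, stood at 0, 2.13 and 8.15 CPM, and *Vwf* itself at 19.3, 35.2 and 68.9 CPM. A count of 0 allows up to 2.32 CPM at E13.5 and 0.639 CPM at E16.5.

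Some secreted products of the members also differed by stage. *Igfbp7*, a binding protein of vessel walls, stood at 214, 1889.9 and 5328 CPM in members and 9.01, 100 and 396 CPM in the other cells. *C1qtnf9*, a secreted relative of complement C1q and adiponectin, stood at 19.3, 181 and 408 CPM in members and 0.288, 4.65 and 3.58 CPM in the other cells. The growth factors *Mdk* and *Ptn*, which bind heparin, stood at 567, 67.6 and 13.3 CPM and at 535, 42.6 and 23.7 CPM in members, and at 234, 33.1 and 6.89 CPM and 90, 24.2 and 22.1 CPM in unmixed members, while the other cells held 1139.6, 307 and 91.6 CPM and 1242, 281 and 301 CPM. Their part from RNA of other cells was not tested.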
